A study of Mus musculus with 20 samples.

Results

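The 10 genes described here code for enzymes that build purine and pyrimidine nucleotides, namely Cad, Dhodh, Umps, Ppat, Gart, Paics, Atic, Impdh2, Rrm2 and Tyms. They were taken by gene symbol from both deposited count tables, which hold 50559 genes, and all 10 were expressed highly enough to be tested. Their expression was compared in 20 mouse RNA-seq libraries, with 5 libraries in each of 4 groups. The study asked how FGF19, a gut hormone that restrains bile acid synthesis, and its drug analog Aldafermin act together with the oncogene MYC in liver carcinogenesis.

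The mice were female C57BL/6J animals, injected at 6 to 8 weeks of age. Tumors arose after hydrodynamic gene transfer, a rapid tail vein injection of plasmids that reaches only some hepatocytes. The Sleeping Beauty transposase, which inserts genes carried on transposon plasmids into the genome, was given with them. Aldafermin+MYC and FGF19+MYC tumors received a plasmid for Aldafermin or for human FGF19 together with a plasmid for MYC. The sgTrp53+MYC tumors received the same MYC plasmid with a CRISPR plasmid against Trp53, the gene of the p53 tumor suppressor, so all 15 tumors carried the MYC plasmid and MYC alone was not among the groups. The livers were labelled healthy and non treated, although the study's methods describe control livers that received a plasmid without an oncogene. Each tumor library came from an individual tumor of a separate mouse, and mice were fasted before collection.

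Cells obtain nucleotides by building them from small precursors or by recycling bases. In pyrimidine synthesis CAD carries out the first steps, DHODH oxidizes dihydroorotate at the inner mitochondrial membrane, and UMPS makes UMP. In purine synthesis PPAT commits phosphoribosyl pyrophosphate to the pathway, GART, PFAS, PAICS and ADSL assemble the ring, ATIC closes it to IMP, and IMPDH turns IMP toward GMP. Ribonucleotide reductase, with RRM1 and either RRM2 or RRM2B as its small subunit, makes deoxyribonucleotides, and TYMS makes the thymidylate of DNA. Resting hepatocytes seldom replicate DNA, and Cad is a long known target of MYC.

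Between 18004977 and 66354724 reads per library were assigned to genes. The 5 sgTrp53+MYC libraries were the deepest, with 54042455 reads or more, and were deposited in a table of their own, so that the tumor type and the table cannot be told apart in any comparison with them. Trp53, the targeted gene, was at 18.7 to 79.9 CPM (reads scaled to a common library size with TMM factors) in sgTrp53+MYC tumors and at 90.8 to 176 in the other tumors, without overlap, and at 28.8 to 36.4 in livers. Summed over 10 hepatocyte markers, livers reached 196250 to 253940 CPM and tumors 6501 to 32213, and each of the 10 was lower in both sets of tumors than in livers. None of these markers was absent from tumors. All 12 genes of an S-phase and proliferation list were higher in both sets of tumors, with sums of 1635 to 2644 CPM in tumors against 74.9 to 119 in livers. In bulk tissue, a change in the share of a cell type and a change of RNA per cell cannot be told apart. In 3 tumor libraries, namely Aldafermin+MYC replicate 5, FGF19+MYC replicate 1 and sgTrp53+MYC replicate 1, long transcripts were the least represented, with Spearman correlations of -0.437, -0.45 and -0.506 between a gene's transcript length and its deviation from the group mean.

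The pyrimidine enzymes rose in every tumor group. Cad (chr5:31212111-31236418 in GRCm39, 44 exons in its main transcript) was at 9.25, 9.64, 17.8, 13.5 and 10.6 CPM in the 5 livers. It was at 351, 348, 279.6, 288 and 156 CPM in Aldafermin+MYC tumors, at 221, 371, 353, 353 and 330.2 CPM in FGF19+MYC tumors and at 135, 254, 245, 318 and 358 CPM in sgTrp53+MYC tumors. The lowest tumor was thus several fold above the highest liver, and the lowest value of each tumor group belonged to one of the 3 libraries poor in long transcripts. Against livers, Cad was 25.03-fold higher in the pooled Aldafermin+MYC and FGF19+MYC tumors (log2 fold change 4.65 ± 0.29 SE, adjusted p = 3.0e-11) and 21.5-fold higher in sgTrp53+MYC tumors (log2 4.43 ± 0.30, adjusted p = 1.3e-10), the largest rise of the 10 genes in both. These p-values come from edgeR's quasi-likelihood test adjusted over 14333 genes.

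Dhodh (chr8:110317492-110335347) was at 12.5 to 14.6 CPM in livers, the narrowest relative spread of the 10 genes there. Tumor values were 145, 127, 86.8, 81.7 and 159 CPM in Aldafermin+MYC, 183, 118, 124, 109.8 and 102 CPM in FGF19+MYC and 189, 109.7, 82.7, 115 and 145 CPM in sgTrp53+MYC tumors. No tumor overlapped the livers, and unlike Cad the highest value of each tumor group came from a library poor in long transcripts. The rise was 9.16-fold in the pooled tumors (log2 3.20 ± 0.23) and 9.50-fold in sgTrp53+MYC tumors (log2 3.25 ± 0.24).

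Umps (chr16:33774077-33787429), the bifunctional enzyme that finishes UMP, started from a higher liver level of 59.3, 70.3, 67.2, 65.8 and 57.4 CPM. It reached 209, 177, 121, 148 and 172 CPM in Aldafermin+MYC, 184, 177, 187, 199 and 157 CPM in FGF19+MYC and 193, 154, 155, 155 and 216 CPM in sgTrp53+MYC tumors. Its rise was the smallest of the 3 pyrimidine enzymes, 2.70-fold in the pooled tumors (log2 1.43 ± 0.13) and 2.73-fold in sgTrp53+MYC tumors (log2 1.45 ± 0.14), again without overlap.

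**Figure D1:**
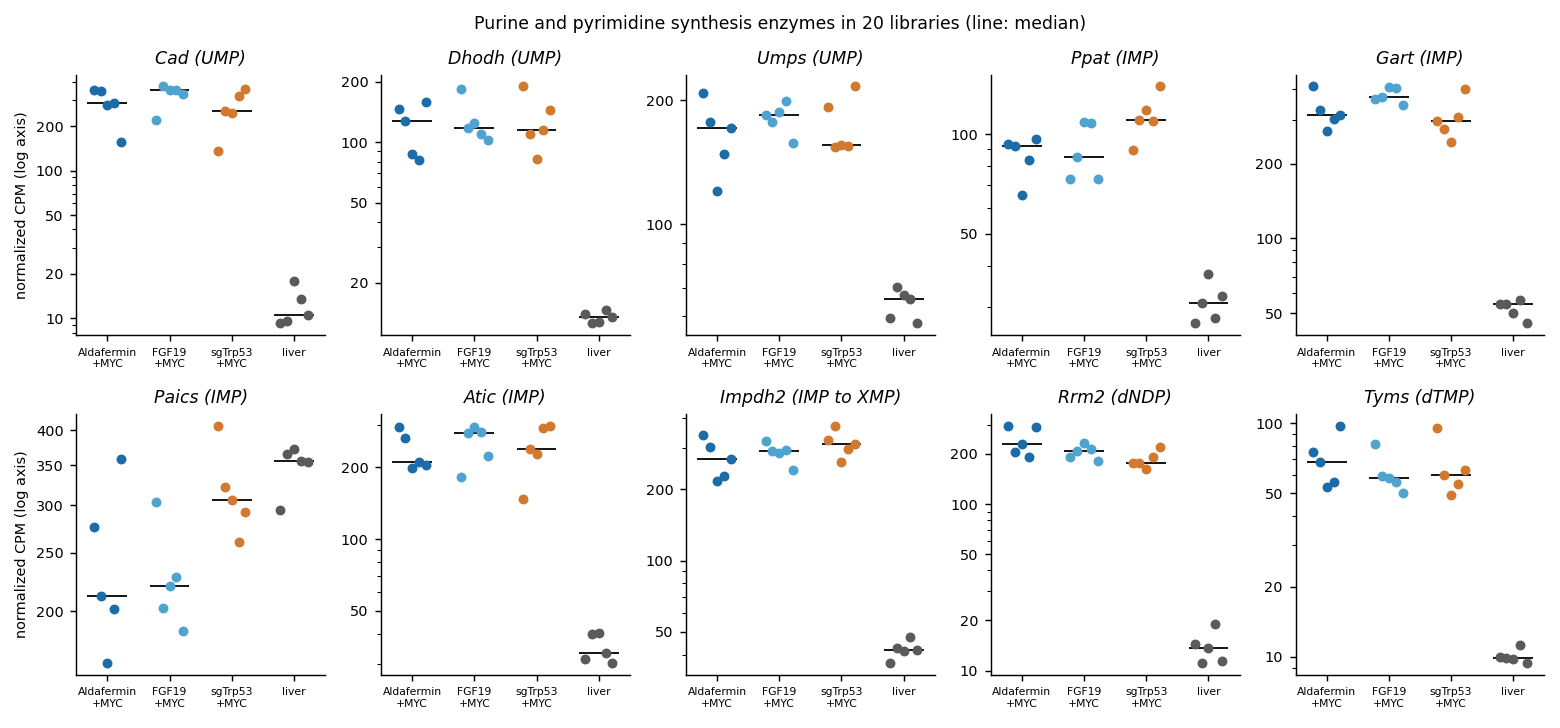
Normalized CPM of each of the 10 genes (log axis, vertical) in the 4 groups (horizontal), 1 point per library and a line at the median of 5. Tumors lie above all livers in 9 panels, for Cad at 135 to 371 against 9.25 to 17.8 CPM, while Paics in tumors spans 164 to 407 CPM around livers at 295 to 372 CPM.

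Of the purine enzymes leading to IMP, 3 rose with TMM scaling and Paics did not. Ppat (chr5:77061096-77099436), which catalyzes the committed step, was at 26.8, 30.9, 37.9, 27.8 and 32.4 CPM in livers. It was at 93.5, 92.01, 65.6, 83.8 and 96.8 CPM in Aldafermin+MYC tumors, 73.5, 85.5, 109, 108 and 73.5 CPM in FGF19+MYC tumors and 89.4, 110.2, 118, 109.7 and 139 CPM in sgTrp53+MYC tumors, all above the livers. The rise was 2.83-fold in the pooled tumors (log2 1.5 ± 0.14) and 3.64-fold in sgTrp53+MYC tumors (log2 1.86 ± 0.16).

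Gart (chr16:91416576-91444536), a trifunctional enzyme, rose from 54.3, 54.3, 50.2, 56.5 and 45.4 CPM in livers to 271 to 411 CPM in Aldafermin+MYC, 346 to 409 CPM in FGF19+MYC and 245 to 400.1 CPM in sgTrp53+MYC tumors. That was 6.75-fold in the pooled tumors (log2 2.75 ± 0.14) and 5.86-fold in sgTrp53+MYC tumors (log2 2.55 ± 0.15). Other annotated genes on the opposite strand, Son among them, overlap 20.6% of the exon bases of Gart, and the strand setting of the read counting is not given in the sources used here. Atic (chr1:71596294-71619241), which performs the last steps to IMP, was at 31.5, 39.99, 40.5, 33.3 and 30.3 CPM in livers and at 199 to 296, 183 to 294 and 147 to 299 CPM in Aldafermin+MYC, FGF19+MYC and sgTrp53+MYC tumors. It rose 6.93-fold (log2 2.79 ± 0.19) and 6.86-fold (log2 2.78 ± 0.20) in the pooled and the sgTrp53+MYC tumors. Pfas and Adsl, the remaining enzymes of the route and not among the 10 genes, rose as well, by log2 2.62 ± 0.20 and 3.15 ± 0.17 in the pooled tumors and by 2.47 ± 0.21 and 2.83 ± 0.18 in sgTrp53+MYC tumors.

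Paics (chr5:77099139-77116370), a bifunctional carboxylase and synthetase, was already abundant in livers, at 295, 365, 372, 355 and 355 CPM. It was at 276, 212, 164, 202 and 358 CPM in Aldafermin+MYC tumors, 304, 202, 220.2, 228 and 185 CPM in FGF19+MYC tumors and 407, 322, 306, 261 and 292 CPM in sgTrp53+MYC tumors. The groups overlapped, and the highest value of each tumor group again came from a library poor in long transcripts. Paics was 1.48-fold lower in the pooled tumors than in livers with TMM scaling (log2 -0.57 ± 0.16, 95% interval -0.90 to -0.23, adjusted p = 0.00376), but the direction turned, to 0.26 (adjusted p = 0.0837), when libraries were scaled by their size alone, and the call was lost, at -0.38 (adjusted p = 0.0896), without a filter on low counts. Scaling by size alone moved the median gene of that comparison from 0.10 to 0.94. In sgTrp53+MYC tumors the difference from livers was -0.13 ± 0.19 (adjusted p = 0.546) with TMM scaling and 0.74 (adjusted p = 2.6e-04) with library size alone, where the median gene moved from 0.07 to 0.95. Under either scaling Paics lay below the median gene in both comparisons, and the other 9 genes stayed higher in tumors.

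Ppat and Paics are neighbors that start within overlapping first exons on opposite strands, and 7.77% and 9.16% of their exon bases are overlapped by opposite-strand genes. Their ratio within a library does not depend on the scaling. Per Paics count there were 0.0782 to 0.102 Ppat counts in livers, 0.271 to 0.433 in Aldafermin+MYC tumors, 0.241 to 0.496 in FGF19+MYC tumors and 0.22 to 0.477 in sgTrp53+MYC tumors. Every tumor was thus above every liver, and the lowest ratio of each tumor group was in the library poor in long transcripts. This ratio was chosen after the values were seen and was not tested.

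**Figure D2:**
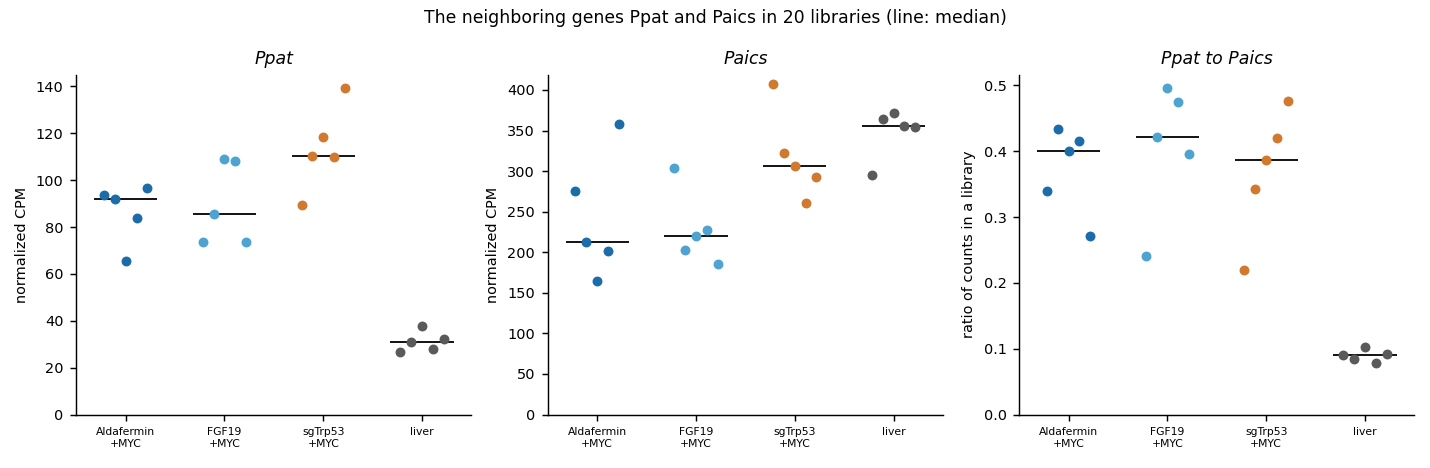
Normalized CPM of Ppat (left) and Paics (middle), and counts of Ppat per count of Paics (right), in the 4 groups with 1 point per library and a line at the median. Ppat separates tumors from livers while Paics overlaps, and the ratio is 0.0782 to 0.102 in livers against 0.22 or more in all tumors.

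Impdh2 (chr9:108437485-108442783), which makes XMP on the way to GMP, rose from 37.01, 42.7, 41.5, 47.7 and 42.00 CPM in livers to 339, 303, 217, 228 and 268 CPM in Aldafermin+MYC, 321, 292, 286, 294 and 242 CPM in FGF19+MYC and 323, 372, 261, 295 and 312 CPM in sgTrp53+MYC tumors. The groups did not overlap with livers, and the rise was 6.61-fold (log2 2.73 ± 0.14) in the pooled and 7.41-fold (log2 2.89 ± 0.15) in the sgTrp53+MYC tumors. A processed pseudogene, Impdh2-ps (chr8:100757190-100758734, 1 exon), carried counts of its own, 63.8 to 111 CPM in tumors and 12.9 to 14.7 CPM in livers. There were 3.08 to 3.41 Impdh2 counts per Impdh2-ps count across the 15 tumors and 2.52 to 3.56 in livers, so reads of Impdh2 may be split between both rows and its level is uncertain.

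The isozyme Impdh1 rose further than Impdh2. It was at 4.45, 3.70, 4.95, 6.76 and 4.86 CPM in livers, 135 to 220.0 CPM in Aldafermin+MYC, 188 to 217 CPM in FGF19+MYC and 108 to 181 CPM in sgTrp53+MYC tumors, a log2 rise of 5.24 ± 0.20 in the pooled and 4.93 ± 0.21 in the sgTrp53+MYC tumors. Livers held 7.05 to 11.5 Impdh2 counts per Impdh1 count, sgTrp53+MYC tumors 1.64 to 3.14, Aldafermin+MYC tumors 1.42 to 1.76 and FGF19+MYC tumors 1.21 to 1.71. The log2 ratio was lower than in livers by 2.53 in the pooled tumors (a difference of -2.53, exact permutation p = 0.000333, adjusted over 8 ratio tests to 0.000888) and by 2.04 in sgTrp53+MYC tumors (-2.04, exact p = 0.00794, adjusted 0.00907). Both p-values are the smallest that their designs allow. The pooled tumors were also below sgTrp53+MYC tumors by 0.50 (-0.50, exact permutation p = 0.00266, adjusted 0.00533), with overlapping ranges. The ratio was not corrected for GC content.

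Among the deoxynucleotide enzymes, Rrm2 (chr12:24757811-24764145), the small subunit made in S phase, was at 14.4, 11.1, 13.7, 19.1 and 11.4 CPM in livers. It was at 295, 207, 230.1, 191 and 288 CPM in Aldafermin+MYC, 192, 209, 232, 215 and 180.0 CPM in FGF19+MYC and 175, 176, 163, 191 and 219.6 CPM in sgTrp53+MYC tumors. After Cad this was the largest rise of the 10 genes, 16.01-fold in the pooled tumors (log2 4.00 ± 0.17, adjusted p = 2.7e-13) and 13.3-fold in sgTrp53+MYC tumors (log2 3.73 ± 0.18, adjusted p = 1.2e-12). In the GENCODE annotation a gene on the opposite strand overlaps 43.3% of its exon bases. Reads were counted on RefSeq genes, so whether this overlap touched the counts is not known. Rrm1, the large subunit, rose by log2 3.19 ± 0.15 in the pooled and 3.21 ± 0.16 in the sgTrp53+MYC tumors.

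Rrm2b, the small subunit known as a p53 target that serves resting and damaged cells, behaved differently. It was at 15.4, 10.5, 9.79, 9.93 and 11.2 CPM in sgTrp53+MYC tumors, above the other 10 tumors at 3.5 to 6.28 CPM and the livers at 4.58 to 7.05 CPM. Rrm2b was higher than in livers in sgTrp53+MYC tumors (log2 1.07 ± 0.20, adjusted p = 1.2e-04), the pooled tumors were at -0.11 ± 0.18 relative to livers (adjusted p = 0.594), and they were lower than the sgTrp53+MYC tumors (log2 -1.18 ± 0.17, adjusted p = 9.8e-05). Trp53 mRNA moved the other way between these tumors, as given above. The ratio of Rrm2 to Rrm2b counts separated all 4 groups without overlap. It was 1.62 to 4.18 in livers, 11.4 to 19.7 in sgTrp53+MYC tumors, 33.5 to 47.0 in FGF19+MYC tumors and 47.7 to 57.5 in Aldafermin+MYC tumors.

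The log2 ratio of Rrm2 to Rrm2b differed by 4.13 between the pooled tumors and livers and by 1.44 between the pooled and the sgTrp53+MYC tumors (exact permutation p = 0.000333 for each, adjusted 0.000888). It differed by 2.68 between sgTrp53+MYC tumors and livers (exact permutation p = 0.00794, adjusted 0.00907). Aldafermin+MYC exceeded FGF19+MYC tumors by 0.44 (exact permutation p = 0.00794, adjusted 0.00907), with the closest values at 47.7 and 47.0 and 91 to 255 counts of Rrm2b per library in these 10 tumors. The same difference was 0.39 to 0.51 with any single library left out. Each of the p-values for this ratio is the smallest that its design allows, and the ratio was not corrected for GC content.

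**Figure D3:**
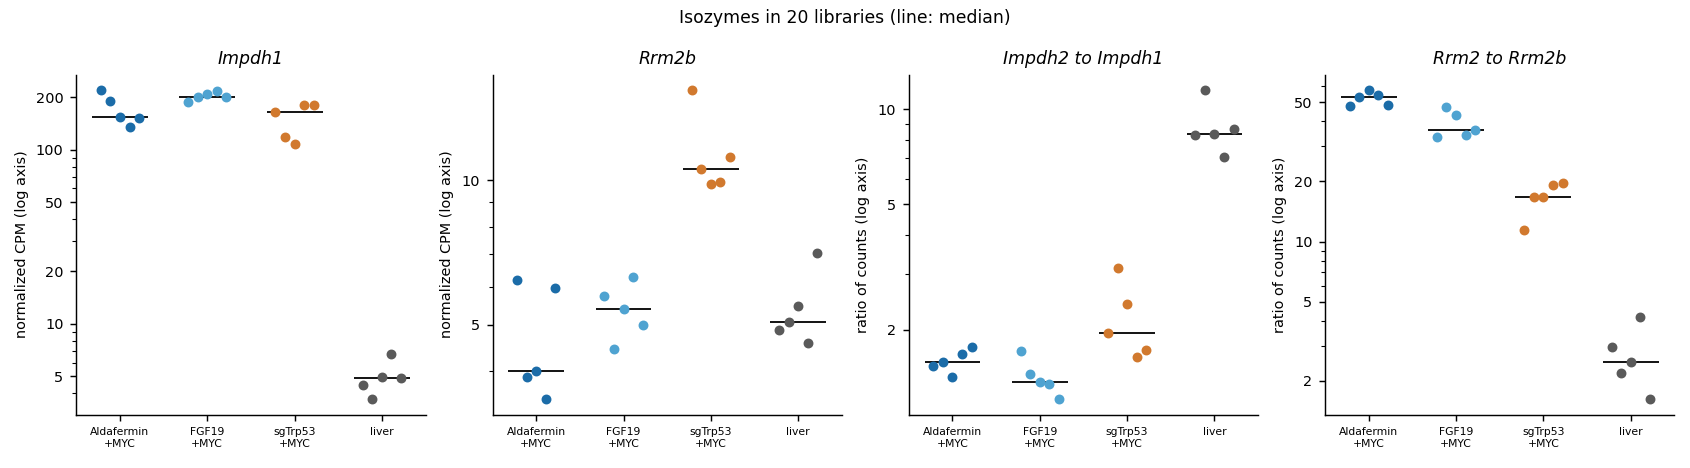
Normalized CPM of the isozymes Impdh1 and Rrm2b, and counts of Impdh2 per count of Impdh1 and of Rrm2 per count of Rrm2b (all log axes, vertical), in the 4 groups with 1 point per library and a line at the median. The ratio of Rrm2 to Rrm2b rises in steps from livers at 1.62 to 4.18 through sgTrp53+MYC and FGF19+MYC tumors to Aldafermin+MYC tumors at 47.7 to 57.5.

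Tyms (chr5:30263198-30278633), which methylates dUMP to dTMP, was next to Dhodh in its narrow relative spread over livers, at 9.97, 9.90, 9.81, 11.2 and 9.44 CPM. It was at 75.2, 68.3, 53.1, 55.8 and 97.5 CPM in Aldafermin+MYC, 81.3, 59.4, 58.2, 55.7 and 50.02 CPM in FGF19+MYC and 95.2, 60.1, 49.1, 55.2 and 63.3 CPM in sgTrp53+MYC tumors, with the highest value of each group in a library poor in long transcripts. It rose 6.49-fold (log2 2.70 ± 0.19) in the pooled and 6.42-fold (log2 2.68 ± 0.20) in the sgTrp53+MYC tumors. A row for a Tyms pseudogene held 0 to 2 counts per library.

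In the comparison of the pooled Aldafermin+MYC and FGF19+MYC tumors with livers, 9 of the 10 genes were called higher and Paics lower, where 39.2% of all genes tested were called higher and 34.5% lower. In 9 genes every tumor exceeded every liver, which held for 28.5% of all genes. For sgTrp53+MYC tumors, 9 were called higher and 0 lower against 36.9% and 33.0% of all genes, and in 9 every tumor exceeded every liver against 28.8%. As a median over the 10 genes the log2 change came to 2.74 in the pooled and 2.73 in the sgTrp53+MYC tumors, and over all genes to 0.10 and 0.07. Both comparisons share the 5 livers. The hepatocyte and proliferation lists moved between the same groups, and their part in these differences was not tested.

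**Figure D4:**
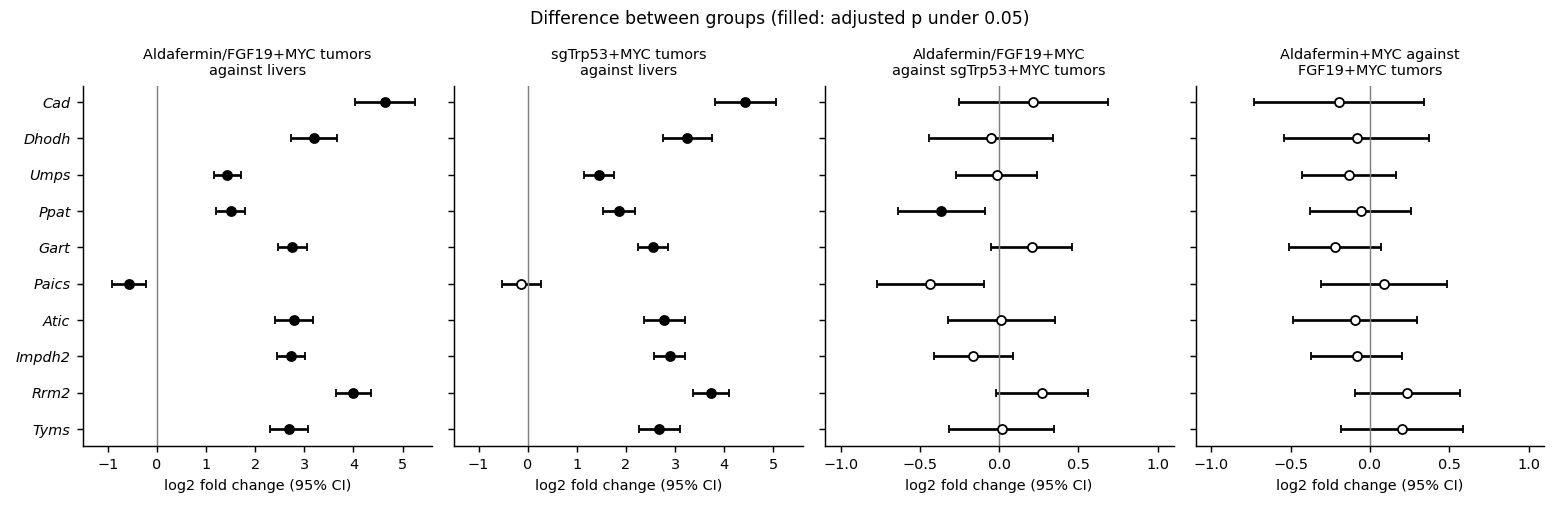
Log2 fold change (horizontal) of the 10 genes (vertical) in 4 comparisons, with 95% intervals and filled points for an adjusted p under 0.05. Against livers 9 genes lie at 1.43 or more in both tumor sets with TMM scaling, while between tumor groups all 10 lie between -0.43 and 0.27.

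Levels were also ordered by mean CPM per kilobase of the main transcript. In livers Paics stood highest at 99.1 CPM per kilobase, followed by Impdh2 at 22.7, Gart at 14.7 and Umps at 14.0, and Tyms and Cad were last at 3.17 and 1.57. Gart and Umps did not differ beyond their spread, with coefficients of variation of 8.42% and 8.53%. In Aldafermin+MYC tumors Impdh2 stood highest at 146 CPM per kilobase, followed by Rrm2 at 92.4, Gart at 92.1, Atic at 71.4 and Paics at 68.9, and Tyms and Ppat were last at 22.04 and 21.6. Rrm2 and Gart did not differ beyond their spread there, nor did Atic and Paics or Tyms and Ppat. Cad and Umps lay close, at 36.7 and 36.1 CPM per kilobase, a gap smaller than their spread. Impdh2 also stood highest in FGF19+MYC tumors at 155 and in sgTrp53+MYC tumors at 168 CPM per kilobase, but the order of the means below it differed between tumor types. In FGF19+MYC tumors Gart followed at 107, Rrm2 at 78.5, Atic at 76.4 and Paics at 64.9, the last 3 within their spread. In sgTrp53+MYC tumors Paics followed at 90.4, Gart at 86.2, Atic at 73.2 and Rrm2 at 70.6. Their coefficients of variation were 17.2%, 19.1%, 25.6% and 11.7%, so neighbors in this order did not differ beyond their spread. Cad was below Umps there, at 33.8 against 38.2, within their spread. None of Gart, Rrm2, Atic and Paics was called between tumor types by the quasi-likelihood test.

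Because 9 of the 10 genes rose together, their promoters were searched on both strands for CACGTG, the E-box that MYC and related factors can bind. The RefSeq promoter table (GRCm38.p6, 250 bases before to 50 after each start) held 9 of the 10 genes and not Dhodh. The E-box letters were present in 4 of these 9, namely Paics, Atic, Impdh2 and Tyms, and in 8.09% of the 27025 genes of the table (7.15% of its 32851 promoters). That share was not taken over the genes tested here, and whether the 10 genes hold more E-boxes than other expressed genes was not tested. These 4 stretches are shown to set the one promoter of a gene that did not rise with TMM scaling beside 3 of genes that did. The Paics stretch also lies downstream of the start of its neighbor Ppat, which rose, and outside the window searched for Ppat. In capitals is the E-box, which reads the same on both strands.
Paics: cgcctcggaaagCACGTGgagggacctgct
Atic: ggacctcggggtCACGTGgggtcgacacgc
Impdh2: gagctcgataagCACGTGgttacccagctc
Tyms: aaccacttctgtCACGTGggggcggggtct
These stretches lie at chr5:76951087-76951116 on the plus strand, chr1:71557137-71557166 (plus), chr9:108560314-108560343 (plus) and chr5:30073669-30073698 (minus) of GRCm38.p6, and the first base of the E-box stands at -203, -7, -110 and -61 from the start site. The E2F letters TTTCCCGC, TTTCGCGC, TTTGCCGC or TTTGGCGC were found in 1 of the 9, Ppat, and in 2.60% of all genes of the table. Ppat held them on the reverse strand in a pair of places.
Ppat at -211: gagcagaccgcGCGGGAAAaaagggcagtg
Ppat at -158: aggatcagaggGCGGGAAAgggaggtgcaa
These lie at chr5:76951771-76951800 and chr5:76951718-76951747, with the reverse complement of the E2F letters in capitals. No stretch with either motif was found in the searched windows of Cad, Umps, Gart and Rrm2. Bases further from the start sites were not searched, so a site there would be missed. A match of letters is a description and not a bound site.

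The 3 tumor types were also compared with each other. Set beside sgTrp53+MYC tumors, the pooled tumors had 0 of the 10 genes called higher and 1 lower, against 11.6% and 12.1% of all genes tested. The 1 gene was Ppat, at 65.6 to 109 CPM in the pooled and 89.4 to 139 CPM in the sgTrp53+MYC tumors, with overlapping ranges (log2 -0.36 ± 0.13, adjusted p = 0.0488 by the quasi-likelihood test). That call lay just under the threshold and was lost in several alternatives, among them the omission of any of 15 of the 20 single libraries and the scaling by library size alone (-0.41, adjusted p = 0.0543), with the value at -0.13 (adjusted p = 0.42) after a correction for GC content and length and at -0.28 (adjusted p = 0.165) without sgTrp53+MYC replicate 5. Paics differed by a similar size that missed the threshold (log2 -0.43 ± 0.16, adjusted p = 0.0579), and passed it at -0.53 (adjusted p = 0.00353) without the 3 libraries poor in long transcripts and at -0.57 (adjusted p = 0.0111), -0.50 (adjusted p = 0.0269) and -0.50 (adjusted p = 0.0472) without Aldafermin+MYC replicate 5, FGF19+MYC replicate 1 or sgTrp53+MYC replicate 4 alone. The other 8 genes lay between -0.16 for Impdh2 and 0.27 for Rrm2. Their 95% intervals reached from -0.44 to 0.34 for Dhodh to -0.25 to 0.68 for Cad, so smaller differences inside these intervals could not be told from none. Between these tumors 4 of 5 tested cholangiocyte markers were lower and 5 of 7 macrophage markers higher in the pooled tumors, with sums of 1.81 to 87.9 CPM against 3.85 to 779 and of 152 to 521 against 95.7 to 154 CPM. The cholangiocyte difference rests on sgTrp53+MYC replicate 2. Without it the sums of sgTrp53+MYC tumors were 3.85 to 41.3 CPM, and 0 of the 4 markers then tested were called by the quasi-likelihood test (1 with an unadjusted p under 0.05), while 4 of 7 macrophage markers still were. Of the hepatocyte markers 3 of 10 were higher and 1 lower, and of the erythroid markers 2 of 5 were higher. The part of these cell types in the values of Ppat and Paics was not tested.

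Aldafermin is an engineered variant of FGF19. Between Aldafermin+MYC and FGF19+MYC tumors, 0 of the 10 genes were called by edgeR's quasi-likelihood test, as for 0% of all genes. No gene of the 10 had an unadjusted p under 0.05, and none was called by DESeq2 or edgeR's likelihood ratio test, which called 96 and 59 of all genes. Over all genes 1048 had an unadjusted p under 0.05. The values ran from -0.22 for Gart (95% interval -0.51 to 0.07) to 0.24 for Rrm2 (-0.09 to 0.57). The widest interval was that of Cad, -0.73 to 0.34, and the narrowest that of Impdh2, -0.37 to 0.21. The groups overlapped in each gene, and a missed threshold does not show that Aldafermin and FGF19 act alike.

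Over all 20 libraries the 10 genes did not vary as a unit within groups. The deviations of log2 CPM from the group mean over the 20 libraries were compared with Pearson's r as a description, since all points share library depth and composition. Cad went with Atic (r = 0.80) and against Tyms (r = -0.60) and Paics (r = -0.55). Dhodh went with Tyms (r = 0.94) and Paics (r = 0.74), and Umps with Gart (r = 0.82). Without the 3 libraries poor in long transcripts, over 17 libraries, Cad no longer went against Tyms (r = 0.46) or Paics (r = 0.31), and Dhodh with Paics came to 0.42. The other pairs named above were at 0.62 for Cad with Atic, 0.91 for Dhodh with Tyms and 0.87 for Umps with Gart. In these 17 libraries every pair of the 10 genes had a positive r, from 0.15 for Ppat with Rrm2 to 0.91 for Dhodh with Tyms. Atic with Tyms, for example, moved from -0.41 to 0.70. Among all genes tested and over all 20 libraries, the closest to Cad were Nolc1 (r = 0.94), Dnaaf5 and Mef2d, to Dhodh Foxred1 (r = 0.94), Tyms and Imp4, and to Tyms Cct5 (r = 0.96), Stoml2 and Eif3d. The closest to Umps were Xrcc6 (r = 0.86), 4933404O12Rik and Ttc27, to Ppat Gtpbp4 (r = 0.91), Nckap1 and Ipo7, and to Paics Mat2b (r = 0.93), Ppa2 and Rheb. The closest to Gart were Wdr46 (r = 0.87), Ruvbl1 and Hsp90ab1, to Atic Nono (r = 0.94), Ppp1r7 and Farsb, to Impdh2 its pseudogene (r = 0.86), Ppif and Ybx1, and to Rrm2 Bub1 (r = 0.87), Siah1b and Ldha-ps2. The search for the closest genes was not repeated without the 3 libraries poor in long transcripts, so these names may depend on them.

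The wider nucleotide pathways were also counted, in lists that hold the 10 genes themselves. Of 65 genes in 7 lists, the 10 included, 64 were tested. Relative to livers, the pooled tumors had 37 of them higher and 18 lower, and the sgTrp53+MYC tumors had 38 higher with 19 lower. Over all genes tested, the shares were 39.2% and 34.5% for the pooled and 36.9% and 33.0% for the sgTrp53+MYC tumors. In the pooled tumors 5 of 6 genes of IMP synthesis, 5 of 6 from IMP to GMP and AMP, 5 of 6 of pyrimidine synthesis to CTP and 8 of 10 of deoxynucleotide synthesis were higher, with median log2 fold changes of 2.69, 1.94, 2.52 and 2.64. In sgTrp53+MYC tumors these counts were 5, 5, 5 and 10, with medians of 2.51, 2.19, 2.65 and 2.67. Ppat, Gart, Paics and Atic are in the IMP synthesis list, and Cad, Dhodh and Umps in the pyrimidine list. Adsl counts in both lists around IMP. The counts and medians of these lists thus repeat in part the values of the 10 genes. Supply of phosphoribosyl pyrophosphate and one-carbon units had 6 of 9 higher in both, with medians of 0.69 and 0.56. Of the salvage enzymes, which recycle bases and nucleosides, 6 of 11 were higher and 5 lower in both.

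Breakdown of nucleotides went the opposite way, with 10 of 17 tested genes lower and 3 higher in the pooled tumors (median log2 -2.28) and 12 lower and 2 higher in sgTrp53+MYC tumors (median -2.13). The lowest in the pooled tumors were Upp2 (log2 -6.30 ± 0.73) and Tymp (-5.97 ± 0.54), which split pyrimidine nucleosides, and Uox (-5.37 ± 0.55), the urate oxidase of hepatocytes. In sgTrp53+MYC tumors they were Tymp (-5.44 ± 0.69), Dpys (-5.41 ± 0.96), a dihydropyrimidinase, and Uox (-5.05 ± 0.73). Hepatocyte markers fell between the same groups. The highest were Dctd (8.18 ± 0.33 in the pooled and 8.0 ± 0.33 in sgTrp53+MYC tumors), which feeds dUMP to Tyms and was at 0.088 to 0.751 CPM in livers, the mitochondrial folate enzymes Mthfd2 (5.68 ± 0.34) and Mthfd1l (5.56 ± 0.35) in the pooled tumors, and Mthfd1l (5.21 ± 0.35) and Impdh1 in sgTrp53+MYC tumors.

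**Figure D5:**
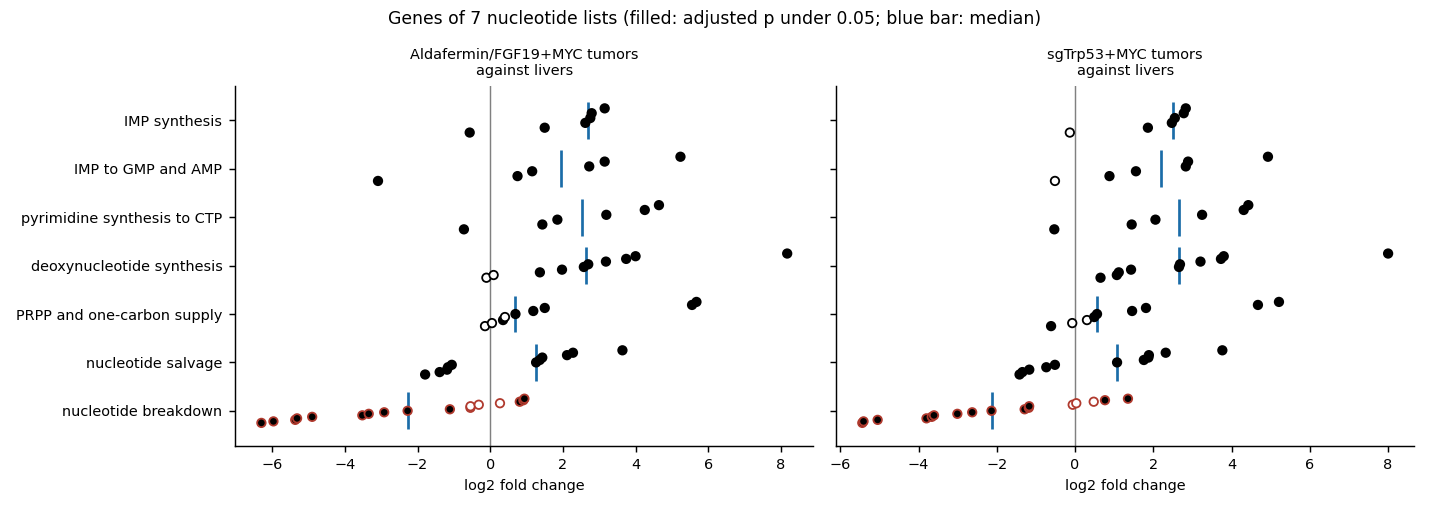
Log2 fold change against livers (horizontal) of each tested gene of the 7 nucleotide lists (vertical), in the pooled Aldafermin+MYC and FGF19+MYC tumors (left) and in sgTrp53+MYC tumors (right), with filled points for an adjusted p under 0.05 and a blue bar at the list's median. The synthesis lists have medians of 1.94 to 2.69 and the breakdown list (red outlines) medians of -2.28 and -2.13.

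Between the pooled and sgTrp53+MYC tumors 2 of the 64 tested genes of the lists were higher and 12 lower, beside 11.6% higher and 12.1% lower of all genes. The higher ones were Mthfd2 (1.00 ± 0.25), at 47.5 to 99.01 against 13.5 to 55.1 CPM, and Shmt1 (0.47 ± 0.14), a cytosolic folate enzyme. The lowest were Upp2 (-2.70 ± 0.66), Adssl1 (-2.58 ± 0.46), the muscle-type adenylosuccinate synthase, and Dpyd (-1.24 ± 0.32), which begins pyrimidine breakdown. Each of these overlapped between the groups, and Adssl1 in sgTrp53+MYC tumors spread over 4.37 to 89.95 CPM. Of the 14 genes, Ppat was the 1 among the 10 described here. Between Aldafermin+MYC and FGF19+MYC tumors 0 of the 64 passed the quasi-likelihood test and 2 had an unadjusted p under 0.05, Gda and Tk2, which are named here after their values were seen.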

How the data were processed

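The authors made stranded mRNA libraries (TruSeq), sequenced paired ends, aligned reads with HISAT2 to mm39 and counted them per RefSeq gene with htseq-count. The deposited values are raw counts in 2 tables, all columns of which were used (0 left out). The 5 summary lines of htseq-count, 33.7% to 56.2% of a library's read pairs, were removed. Groups were taken from the sample titles.

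Counts of all 20 libraries were fitted together with edgeR 4.0.16 (R 4.3.3), with 14333 genes of at least 1 CPM in at least 5 libraries, TMM scaling, 4 group means and the quasi-likelihood test, adjusted by Benjamini-Hochberg over all genes with a threshold of 0.05. A pooled group is the mean of 2 group means, and CPM are TMM scaled. Isozyme ratios were compared by exact two-sided permutation of libraries, adjusted over 8 tests, without a correction for GC content or length. The scripts were tested on simulated data. Gene positions, lengths and overlaps with other genes are from GENCODE vM39 on GRCm39, which is not the RefSeq annotation used for counting. Promoters are from RefSeq on GRCm38.p6.

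The 10 genes, the lists and the tests were chosen with earlier results of these data known. The text names all 10, their close isozymes and partners, pseudogene rows, the 3 highest and 3 lowest called list genes of each comparison, the 3 genes most like each of the 10, and Trp53. Alternatives were DESeq2 1.42.0, edgeR's likelihood ratio test, other size factors and filters, only the compared groups, replicate blocks, each tumor group alone, GC and length offsets and each library left out. Added after the data were seen were leaving out the 3 libraries poor in long transcripts, leaving out the 2 tumor libraries richest in Alb, summing Impdh2 with its pseudogene, correlations without the first 3 libraries, and marker calls without sgTrp53+MYC replicate 2.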

Additional observations from a re-analysis of the deposited data

Results flagged for a closer look

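Of 48 sets of 5 libraries, 3 held a library far from the rest, where chance flags about 1 in 20. Cad was at 221 CPM in FGF19+MYC replicate 1 against 330.2 to 371 in the other FGF19+MYC tumors, and Dhodh was at 183 CPM in the same library against 102 to 124. This library is one of the 3 that are poor in long transcripts. Paics was at 295 CPM in liver replicate 1 against 355 to 372 in the other livers.

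The difference between tumor and liver passed a direct test between the pooled Aldafermin+MYC and FGF19+MYC tumors and the sgTrp53+MYC tumors for 3 measures. The log2 ratio of Impdh2 to Impdh1 differed by -0.50 and the log2 ratio of Rrm2 to Rrm2b by 1.44. Over 13847 genes, the log2 fold change between these tumors correlated with GC content (Spearman 0.33). Exon GC content was 52.3% for Impdh2 and 56.2% for Impdh1, and 48.8% for Rrm2 and 40.2% for Rrm2b. The ratios were not run with GC and length offsets, and the part of GC content in them was not tested. Ppat differed by -0.36 on the log2 scale (adjusted p = 0.0488), a call that was lost when any one of 15 of the 20 libraries was left out and that came to -0.13 (adjusted p = 0.42) with GC and length offsets. The sgTrp53+MYC libraries come from a table of their own, with 11.1% to 14.6% of read pairs ambiguous between genes against 3.03% to 6.30% elsewhere, and the tumor type cannot be told apart from the table.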

How the results depend on the processing

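The counts of called genes against livers and the 4 ratio differences against livers kept their direction and their side of the threshold in every alternative run. For single genes the exception was Paics, which turned from -0.57 to 0.26 in the pooled tumors and from -0.13 to 0.74 in sgTrp53+MYC tumors with library size alone, and was at -0.38 (adjusted p = 0.0896) and 0.15 (adjusted p = 0.583) without a filter. The other ratio differences between tumors, apart from the one given below, also kept their side. With library size alone 76.9% of called genes were higher in the pooled tumors and 77.9% in sgTrp53+MYC tumors, against 53.2% and 52.8% with TMM.

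Between the pooled and sgTrp53+MYC tumors the 1 called gene rests on the setting. There were 2 called with DESeq2, with filterByExpr and without the 3 libraries poor in long transcripts, and 0 with the likelihood ratio test, with the replicate block, with Aldafermin+MYC or FGF19+MYC tumors alone, with GC and length offsets and without the 2 libraries richest in Alb. Leaving out single libraries gave 0 to 2, with 2 without Aldafermin+MYC replicate 5 and 0 without any of 13 libraries, namely Aldafermin+MYC replicates 1 to 4, FGF19+MYC replicates 2 and 5, sgTrp53+MYC replicates 2, 3 and 5 and liver replicates 1, 2, 4 and 5. Without FGF19+MYC replicate 1, without sgTrp53+MYC replicate 4 and with library size alone the 1 called gene was Paics in place of Ppat. Called list genes numbered 8 in place of 14 with Aldafermin+MYC tumors alone. The cause was not tested. Without a filter 33.1% of all called genes were higher in this comparison, against 48.9%.

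In Aldafermin+MYC relative to FGF19+MYC tumors, the log2 ratio of Impdh2 to Impdh1 was 0.18 (adjusted p = 0.111, exact permutation) and 0.12 to 0.25 with single libraries left out, and passed the threshold without FGF19+MYC replicate 1 (0.25, adjusted p = 0.0238).

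Replicate numbers come from the titles, which state no pairing of the samples. The 30 pairs with the same number had correlations of -0.333 to 0.333, and the 120 pairs with different numbers -0.553 to 0.669. Of all libraries, 0 were closest to their own number. These correlations are of deviations within groups, which also follow transcript length, and cannot exclude a shared batch. The replicate block gave -0.35 (adjusted p = 0.0749) for Ppat between the pooled and sgTrp53+MYC tumors and moved no other count of called genes by over 1.5 times. Livers had the fewest counts, down to 129 for Cad.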
